A study of Homo sapiens with 9 samples.

Results

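The genes described here are 10 human drug transporters: the uptake carriers SLCO2B1, SLCO3A1 and SLCO4A1 and the efflux pumps ABCB1, ABCB6, ABCC1, ABCC2, ABCC3, ABCC4 and ABCG2. They were chosen by symbol with their differences between the treatment groups of these libraries already known, so values between these groups describe them and are not tests. All 10 were found among the 24344 genes of the count table. Of these, 9 passed the filter on low counts that left 14195 genes for testing, and ABCB1 did not.

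Organic anion transporting polypeptides, encoded by the SLCO genes, are membrane carriers that bring bile salts, steroid sulfates, thyroid hormones and many drugs into cells. ATP-binding cassette (ABC) transporters use ATP to move substrates across membranes, and several of the B, C and G subfamilies pump drugs or their conjugates out of the cell. In tumour cells the efflux pumps are best known for multidrug resistance, and ABCB1, ABCC1 and ABCG2 are the classical members of that group. A transcript level is not a measure of transport.

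Expression was measured by RNA sequencing of MDA-MB-231, an established line of human breast adenocarcinoma without hormone receptors, 48 h after treatment. The CKI group received Compound Kushen Injection, an extract of Kushen combined with Baituling, at 2 mg/mL. The Kushen and Baituling groups received an injection of the single herb, diluted in the same ratio as CKI. Each group had 3 libraries, which the submitters call biological replicates, so 9 libraries were compared. CKI against Kushen asks what Baituling adds to Kushen, and CKI against Baituling asks what Kushen adds to Baituling. All values come from a single cell line at a single time, and untreated libraries were not analysed here.

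The total count was 20144628 to 23782071 per library. All 7 genes fixed as present in MDA-MB-231 (VIM, CD44, KRT8, KRT18, EGFR, AXL and FN1) were detected in every library, with a summed level of 3027 to 3104 CPM (counts scaled to a common library size) in CKI, 3744 to 3805 CPM in Kushen and 7197 to 7245 CPM in Baituling. EGFR ran the other way, as its Baituling mean of 247 CPM lay below those of CKI (427) and Kushen (424). The other 6 were lower in CKI and in Kushen than in Baituling, each with an adjusted p under 0.05 by edgeR. Another 4 genes were fixed as low (ESR1, PGR, CDH1 and EPCAM). EPCAM was the highest of them, with means of 13.6 CPM for Baituling, 7.75 for CKI and 7.32 for Kushen. CDH1 was called lower in CKI and in Kushen than in Baituling. The part of these marker differences in the results against Baituling was not tested. Baituling replicates 2 and 3 stood apart from the rest in keratinocyte genes: KRT5, KRT14, TP63, DSG3 and KRT6A summed to 12.7 and 14.9 CPM there, against 0.363 to 0.732 CPM in the other 7 libraries. KRT5 had 93 and 124 counts in those libraries and none in the other 7. Baituling replicate 1 lacked all of the list but TP63. For this reason the contrasts with Baituling were repeated with Baituling replicate 1 alone. Every described transporter tested kept the direction of its log2 fold change there in both contrasts. That fit holds a lone Baituling library, so its spread is taken from the CKI and Kushen replicates. Summed liver markers (0.548 to 1.37 CPM), leukocyte markers (5.07 to 11.8 CPM) and endothelial markers (0.110 to 1.07 CPM) stayed low in all 9 libraries. In bulk RNA, fewer cells expressing a gene and less RNA per cell cannot be told apart.

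The sequence upstream of a start site is shown for the 3 genes with a RefSeq promoter entry that passed the threshold described below as higher in CKI than in Baituling, SLCO2B1, ABCC2 and ABCG2. RefSeq (table on GRCh38.p14) held 14 start sites for 7 of the 10 genes, and SLCO4A1, ABCC1 and ABCC3 had no entry. The windows were located on GRCh37, the assembly of hg19, by exact match. Of the 250 bases before each start, the longest run outside annotated exons is printed 5′ to 3′. Capitals mark a match to any of 5 short motifs searched on both strands. GCGTG is the core of the xenobiotic response element, which the aryl hydrocarbon receptor AHR binds. TGACNNNGC is the core of the antioxidant response element, the site of the factor encoded by NFE2L2. TGANTCA is the site of AP-1 factors and can overlap with the element before it. GGGCGG is the GC box of Sp1-like factors. TATAAA is the TATA box of the basal transcription machinery.
SLCO2B1, chr11:74861902-74862105, plus strand: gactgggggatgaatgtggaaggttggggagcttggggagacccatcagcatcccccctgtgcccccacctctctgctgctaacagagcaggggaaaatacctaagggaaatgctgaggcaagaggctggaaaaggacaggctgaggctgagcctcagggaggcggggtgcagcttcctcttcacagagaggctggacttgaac
SLCO2B1, chr11:74870627-74870824, plus strand: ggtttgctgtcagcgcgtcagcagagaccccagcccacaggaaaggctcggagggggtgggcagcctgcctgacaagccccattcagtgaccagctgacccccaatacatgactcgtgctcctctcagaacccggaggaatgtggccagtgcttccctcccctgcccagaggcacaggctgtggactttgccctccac
ABCC2, chr10:101542147-101542396, plus strand: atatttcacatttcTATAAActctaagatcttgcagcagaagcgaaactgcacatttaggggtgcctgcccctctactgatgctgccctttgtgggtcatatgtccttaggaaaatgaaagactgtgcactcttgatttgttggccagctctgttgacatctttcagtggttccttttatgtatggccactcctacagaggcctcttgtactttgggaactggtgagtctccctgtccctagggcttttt
ABCG2, chr4:89080177-89080311, minus strand: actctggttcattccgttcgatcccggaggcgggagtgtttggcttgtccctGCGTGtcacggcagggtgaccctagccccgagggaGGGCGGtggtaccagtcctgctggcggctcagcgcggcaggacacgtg

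Both SLCO2B1 windows lay inside the annotated gene and held none of the 5 motifs within 250 bases of the start. The ABCC2 window lay outside every annotated gene and held the letters TATAAA, which start 236 bases before the start site. The ABCG2 window was inside that gene and held a GCGTG and a GGGCGG in the printed run. It was picked from 5 ABCG2 windows because its run held matches. The run of another window lies within the printed 1 and holds the same matches, the runs at chr4:89080476-89080692 and chr4:89152781-89153028 held none, and the remaining window had no run outside exons. Over the 14 windows, GCGTG was present in 6, TGACNNNGC in 2, TGANTCA in 1, GGGCGG in 5 and TATAAA in 1. Among all 35116 promoter windows of the same length the shares were 32.2% for GCGTG, 10.9% for TGACNNNGC, 6.57% for TGANTCA, 42.6% for GGGCGG and 10.7% for TATAAA. The 14 windows are not separate units, since 5 belong to ABCG2 and some of these overlap and share sites. All of these are matches of letters, and no binding was measured.

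Levels within a gene are given as CPM on library sizes scaled by TMM (trimmed mean of M values), and differences as log2 fold changes ± SE from edgeR over all 9 libraries. A gene was called when its Benjamini-Hochberg adjusted p over all 14195 genes was under 0.05 and its log2 fold change was above 1 or below -1. In CKI against Kushen, 0 of the 9 transporters tested were called by edgeR or by DESeq2, beside 1.9% of all genes (1.7% higher and 0.197% lower in CKI). Of these 9, 7 had an unadjusted p under 0.05 and 6 an adjusted p under 0.05, the latter beside 39.8% of all genes. In CKI against Baituling, 4 were called higher and 1 lower, beside 19.1% of all genes (11.2% higher, 7.91% lower), and adjusted p alone was under 0.05 for 76.1% of all genes. In Kushen against Baituling, 3 were called higher and 1 lower, beside 15.2% of all genes (8.5% higher, 6.73% lower), and adjusted p alone was under 0.05 for 71.6%. The genes were chosen on these contrasts, so nothing is read from their counts against these shares. Both contrasts with Baituling use the same Baituling libraries.

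The 3 libraries of a group lay above the 3 of the other group for 7 of the 9 transporters in CKI against Kushen, beside 49.5% of all genes. The same held for all 9 tested in CKI against Baituling, beside 78.3%, and for 8 in Kushen against Baituling, beside 73.1%. The median log2 fold change of the 9 was 0.10, 0.86 and 0.43 in these contrasts in turn, and that of all genes tested was 0.01, 0.03 and 0.02. SLCO2B1, SLCO4A1, ABCC1, ABCC3, ABCC4 and ABCG2 separated every pair of groups. Of the 10 genes, the CKI mean lay between the single-herb means for 5 (SLCO2B1, SLCO4A1, ABCC1, ABCC3 and ABCC4). It was the highest for the other 5, among them ABCB1, which was not tested. The share of all genes with either pattern was not computed, so nothing is read from these counts.

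**Figure D1:**
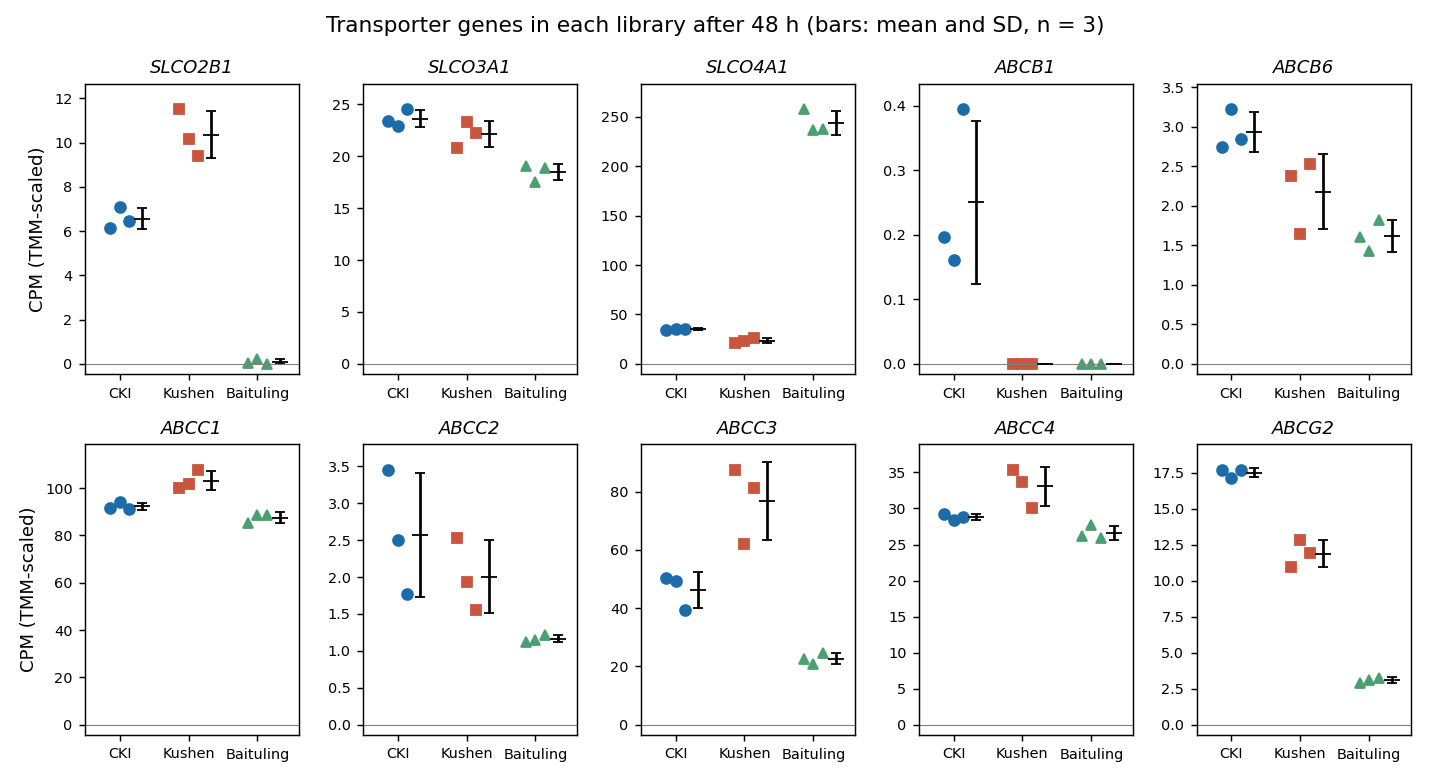
Level of each of the 10 transporter genes in CPM on TMM-scaled library sizes (y axis, a separate linear scale per gene) in the 3 CKI (circles), 3 Kushen (squares) and 3 Baituling libraries (triangles), with the mean and SD beside them. SLCO2B1 lies at 0 to 0.219 CPM in Baituling and SLCO4A1 at 236 to 258 CPM, each far from the other groups.

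SLCO2B1 encodes OATP2B1, a broad uptake carrier for drugs and steroid sulfates. The gene lies at chr11:74811608-74917594 (GRCh37) on the plus strand. Its level was 6.16, 7.09 and 6.44 CPM in the CKI libraries. In the Kushen libraries it was 11.51, 10.2 and 9.40 CPM. In the Baituling libraries it was 0.0488, 0.219 and 0 CPM, from 1, 4 and 0 counts. Transcripts were thus close to absent with Baituling alone, present with CKI and highest with Kushen alone, with no overlap between groups. The log2 fold change was 6.13 ± 0.33 for CKI against Baituling and 6.80 ± 0.30 for Kushen against Baituling, both called. SLCO2B1 passed the filter only through CKI (157 to 176 counts) and Kushen (212 to 286 counts), so these calls are no test. With pooled counts, which cover counting error only, the ratio was 74.6 (95% interval 31.7 to 231, 496 against 5 counts) for CKI and 118 (50.4 to 365, 746 against 5 counts) for Kushen. CKI was lower than Kushen by a log2 fold change of -0.66 ± 0.12, which did not reach the fold threshold. With Baituling replicate 1 alone the log2 fold changes were 6.91 ± 0.49 for CKI and 7.58 ± 0.44 for Kushen. An unstranded library cannot separate SLCO2B1 from TPBGL-AS1, a noncoding gene on the opposite strand with which it shares 502 exon bases.

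SLCO4A1 encodes OATP4A1, a widely expressed carrier of thyroid hormones and other organic anions, and lies at chr20:61273855-61317137 on the plus strand. It was the only one of the 10 called lower with CKI or Kushen than with Baituling. Its level was 34.1, 35.7 and 35.8 CPM in CKI. It was 21.5, 23.5 and 25.9 CPM in Kushen. In Baituling it was 258, 236 and 237 CPM. The groups did not overlap, and the order was the reverse of that of SLCO2B1, with CKI again between the single herbs. The log2 fold change was -2.79 ± 0.06 for CKI against Baituling (6.93-fold lower) and -3.37 ± 0.06 for Kushen against Baituling (10.3-fold lower). CKI was 1.49-fold higher than Kushen (0.58 ± 0.06). With Baituling replicate 1 alone the first of these differences was -2.88 ± 0.07 and the other -3.46 ± 0.07.

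The gene shares 346 exon bases with the noncoding SLCO4A1-AS1 on the opposite strand. That gene had 4.79, 5.48 and 5.06 CPM in CKI and 3.46, 4.64 and 3.73 CPM in Kushen. In Baituling it had 18.3, 17.8 and 17.2 CPM. It was thus also highest in Baituling, and reads of the shared bases cannot be assigned to a strand. Even the highest SLCO4A1-AS1 value was below every SLCO4A1 value. The third uptake carrier, SLCO3A1, transports prostaglandins and thyroid hormone and lies at chr15:92396938-92715665 on the plus strand. It differed little: 23.4, 22.9 and 24.5 CPM in CKI, 20.8, 23.3 and 22.2 CPM in Kushen and 19.0, 17.6 and 18.8 CPM in Baituling. Its log2 fold changes were 0.10 ± 0.07 for CKI against Kushen, 0.35 ± 0.07 for CKI against Baituling and 0.26 ± 0.07 for Kushen against Baituling, none called. CKI and Kushen overlapped, and Baituling lay below both. With Baituling replicate 1 alone the differences from Baituling were 0.30 ± 0.10 for CKI and 0.21 ± 0.10 for Kushen. SLCO3A1 shares 538 exon bases with ENSG00000258761, a noncoding gene on the opposite strand.

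ABCG2 encodes the breast cancer resistance protein, an efflux pump that transports xenobiotics and conjugates and is found at the gut, liver and blood-brain barriers. It lies at chr4:89011302-89152780 on the minus strand. Its level was 17.7, 17.1 and 17.7 CPM in CKI, the highest of the groups. In Kushen it was 10.9, 12.8 and 11.9 CPM. In Baituling it was 2.88, 3.13 and 3.26 CPM. All groups were separate, and ABCG2 was the only one of the genes that separated all groups with CKI highest. The log2 fold change was 2.5 ± 0.10 for CKI against Baituling (5.67-fold) and 1.95 ± 0.11 for Kushen against Baituling (3.85-fold), both called. CKI against Kushen gave 0.56 ± 0.08 (1.47-fold), below the fold threshold. With Baituling replicate 1 alone the differences from Baituling were 2.59 ± 0.16 for CKI and 2.04 ± 0.17 for Kushen.

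The ABCC genes encode the multidrug resistance-associated proteins. ABCC3 encodes MRP3, an exporter of glucuronide conjugates and bile salts, and lies at chr17:48712138-48769614 on the plus strand. Its level was 50.3, 49.2 and 39.2 CPM in CKI. In Kushen it was 87.5, 62.0 and 81.2 CPM. In Baituling it was 22.6, 20.7 and 24.6 CPM. As for SLCO2B1, Kushen was highest, CKI lay between and Baituling was lowest, without overlap, but the spread within Kushen was wide (76.9 ± 13.3 CPM, SD, n = 3). The log2 fold change was 1.76 ± 0.11 for Kushen against Baituling and 1.03 ± 0.12 for CKI against Baituling, both called. For CKI against Kushen it was -0.73 ± 0.10. The value of 1.03 was just inside the fold threshold. It was 0.96 without CKI replicate 1, 0.98 without CKI replicate 2 and 0.97 without Baituling replicate 2, in each case just outside. Against Baituling replicate 1 alone it was 1.02 ± 0.18, and Kushen against Baituling was 1.76 ± 0.18.

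ABCC2 encodes MRP2, the canalicular exporter of bilirubin glucuronides and drug conjugates, and lies at chr10:101542397-101612351 on the plus strand. It was expressed at a low level, with 3.45, 2.498 and 1.78 CPM in CKI, from 88, 62 and 45 counts. In Kushen it had 2.54, 1.93 and 1.55 CPM, from 63, 47 and 35 counts. In Baituling it had 1.122, 1.15 and 1.22 CPM, from 23, 21 and 22 counts. CKI and Kushen overlapped and Baituling lay below both. The log2 fold change was 1.15 ± 0.27 for CKI against Baituling, called, and 0.79 ± 0.28 for Kushen against Baituling, not called. For CKI against Kushen it was 0.35 ± 0.23. Without CKI replicate 1 the first of these fell to 0.88 and the call was lost. Against Baituling replicate 1 alone it was 1.18 ± 0.42, and Kushen against Baituling was 0.84 ± 0.43.

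ABCC1 and ABCC4 were expressed in all groups at similar levels. ABCC1 encodes MRP1, an exporter of glutathione conjugates and leukotriene C4, and lies at chr16:16042995-16237114 on the plus strand. It had 91.4, 94.0 and 91.3 CPM in CKI, 99.98, 101.8 and 107.7 CPM in Kushen and 85.1, 88.8 and 88.8 CPM in Baituling. ABCC4 encodes MRP4, an exporter of cyclic nucleotides and prostaglandins, and lies at chr13:95672089-95953729 on the minus strand. It had 29.2, 28.5 and 28.8 CPM in CKI, 35.4, 33.7 and 30.1 CPM in Kushen and 26.3, 27.8 and 25.8 CPM in Baituling. Both were highest with Kushen and lowest with Baituling, without overlap, and neither was called in any contrast. The log2 fold changes of ABCC1 were -0.16 ± 0.04 for CKI against Kushen, 0.08 ± 0.04 for CKI against Baituling and 0.24 ± 0.04 for Kushen against Baituling. Those of ABCC4 in the same order were -0.20 ± 0.06, 0.12 ± 0.07 and 0.31 ± 0.07. With library totals in place of TMM, CKI against Baituling was 0.36 ± 0.05 in ABCC1 and 0.40 ± 0.07 in ABCC4. CKI and Kushen differed from Baituling replicate 1 alone by 0.10 ± 0.07 and 0.27 ± 0.07 in ABCC1 and by 0.12 ± 0.10 and 0.33 ± 0.10 in ABCC4.

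ABCB1 encodes P-glycoprotein, the best known pump of multidrug resistance, and lies at chr7:87132333-87342639 on the minus strand. It had 5, 4 and 10 counts in the CKI libraries (0.196, 0.161 and 0.395 CPM) and 0 counts in all 3 Kushen and all 3 Baituling libraries. A total of 0 counts over a group allows up to 3 counts, or 0.0418 CPM in Kushen and 0.0528 CPM in Baituling. Against that limit the mean of CKI, from 19 counts in all, was at least 6.01-fold higher than Kushen and at least 4.76-fold higher than Baituling. The limit covers the counting error of the groups at 0 and not that of the 19 counts. ABCB1 was too low for the filter and was not tested. Its close paralog ABCB4, with which reads may be shared, had 3, 3 and 5 counts in CKI, 0, 3 and 1 in Kushen and 0 in each Baituling library. Both genes were barely detected at this depth.

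ABCB6, a porphyrin transporter of mitochondria and other membranes, lies at chr2:220074494-220083716 on the minus strand. It had 2.75, 3.22 and 2.84 CPM in CKI, 2.37, 1.64 and 2.53 CPM in Kushen and 1.61, 1.43 and 1.82 CPM in Baituling. CKI lay above both single herbs, and Kushen overlapped Baituling. The log2 fold changes were 0.43 ± 0.18 for CKI against Kushen, 0.86 ± 0.20 for CKI against Baituling and 0.43 ± 0.21 for Kushen against Baituling. None was called, and the value of 0.86 was the nearest outside the fold threshold. With library totals in place of TMM it was 1.14 and called, and with Baituling replicate 1 alone it was 0.85 ± 0.31. Kushen against Baituling was then 0.43 ± 0.32. The annotation places another protein-coding gene, ENSG00000284820, on the same strand with 2841 shared exon bases. It has no row of its own in the count table, so the ABCB6 count is uncertain.

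**Figure D2:**
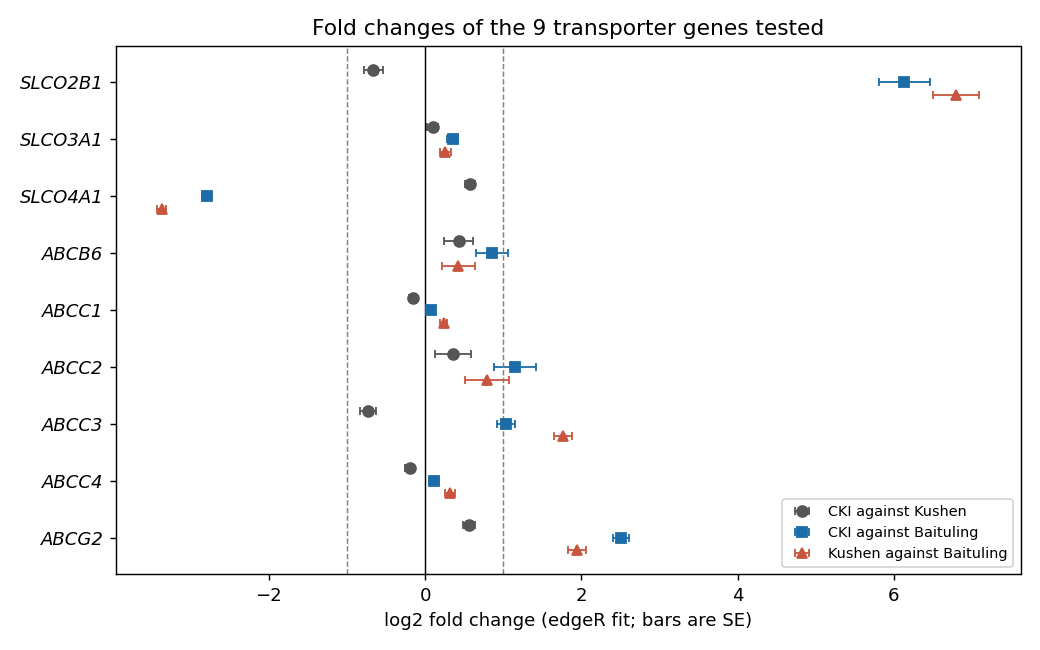
Log2 fold change with SE (x axis) of the 9 transporter genes tested (y axis) in CKI against Kushen (circles), CKI against Baituling (squares) and Kushen against Baituling (triangles). Dashed lines mark the fold threshold of 1 and -1. SLCO2B1 lies beyond 6 and SLCO4A1 below -2 in both contrasts with Baituling, and every circle lies inside the dashed lines.

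To compare levels between the genes, CPM was divided by the length of the union of annotated exons. On this scale ABCC1 was the most abundant of the 10 in CKI (10.6 ± 0.176 CPM per kb, SD, n = 3) and in Kushen (11.8 ± 0.462). In Baituling SLCO4A1 was the most abundant (61.1 ± 3 CPM per kb) and ABCC1 followed (10 ± 0.246). Among all genes tested, the level of SLCO4A1 stood at percentile 94 in Baituling, 65.6 in CKI and 56.4 in Kushen, whereas ABCC1 stayed between percentiles 67.7 and 72.3. The level of SLCO2B1 stood at percentile 0.282 in Baituling, 17.6 in CKI and 23.7 in Kushen.

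In CKI the order of levels per kb after ABCC1 was SLCO4A1 (8.82), ABCC3 (4.81), ABCC4 (3.34), ABCG2 (3.12), SLCO3A1 (2.51), SLCO2B1 (0.639), ABCB6 (0.564), ABCC2 (0.329) and ABCB1 (0.039). Only SLCO2B1 and ABCB6 were neighbours whose libraries overlapped. In Kushen the order after ABCC1 was ABCC3 (8), SLCO4A1 (5.92), ABCC4 (3.83), SLCO3A1 (2.35), ABCG2 (2.12), SLCO2B1 (1.01), ABCB6 (0.419), ABCC2 (0.256) and ABCB1 (0). Overlapping neighbours there were ABCC3 and SLCO4A1, SLCO3A1 and ABCG2, and ABCB6 and ABCC2. In Baituling the order after SLCO4A1 and ABCC1 was ABCC4 (3.08), ABCC3 (2.36), SLCO3A1 (1.96), ABCG2 (0.551), ABCB6 (0.311), ABCC2 (0.148), SLCO2B1 (0.0087) and ABCB1 (0). Only SLCO2B1 and ABCB1 overlapped there.

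Summed per kb, the 3 uptake carriers reached 12 ± 0.295 CPM per kb with CKI (SD, n = 3), 9.27 ± 0.526 with Kushen and 63.0 ± 3.06 with Baituling. Without SLCO4A1 the sums were 3.14 ± 0.0768, 3.35 ± 0.0974 and 1.97 ± 0.0747, so the high sum in Baituling rested on SLCO4A1. The 7 efflux pumps summed to 22.8 ± 0.786 CPM per kb with CKI, 26.4 ± 1.38 with Kushen and 16.5 ± 0.35 with Baituling. The sum of the uptake carriers was thus highest in Baituling and that of the efflux pumps lowest there. No sum of the efflux pumps was made with a gene left out. The genes were chosen on these contrasts, so nothing is read from these sums about uptake or efflux.

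**Figure D3:**
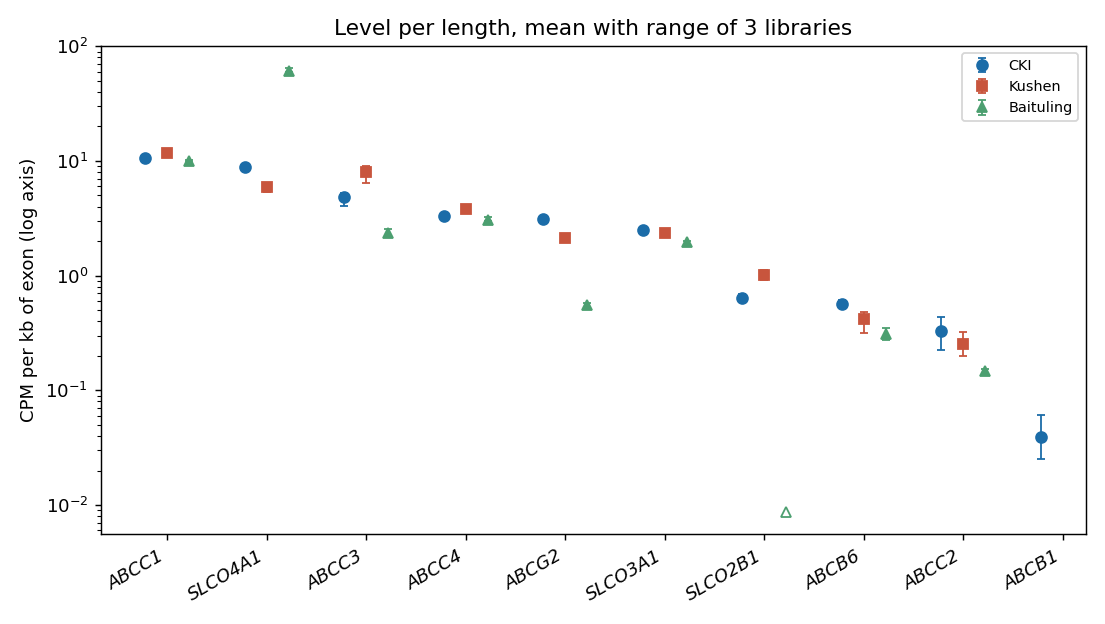
Mean level in CPM per kb of exon (y axis, logarithmic) of the 10 transporters (x axis, ordered by the CKI level) in CKI (circles), Kushen (squares) and Baituling (triangles). Bars span the 3 libraries, the open triangle is a mean that includes a library at 0, and means of 0 (ABCB1 in Kushen and Baituling) cannot be drawn on this axis. SLCO4A1 in Baituling, at 61.1, is the highest point.

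The other genes of the ABC, SLCO, SLC22, SLC47, nucleoside and further carrier families were written as a list of 95, of which 53 were tested. In CKI against Kushen 2 were called higher and 1 lower (5.66% of the list, beside 1.9% of all genes). In CKI against Baituling 10 were called higher and 3 lower (24.5% beside 19.1%). In Kushen against Baituling 10 were called higher and 2 lower (22.6% beside 15.2%). The median log2 fold change of the list was -0.02, 0.34 and 0.36 in these contrasts. P-values below are from edgeR's quasi-likelihood test with Benjamini-Hochberg adjustment.

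With Baituling replicate 1 alone, 12 of these 13 and 11 of these 12 calls against Baituling were made in the same direction, the exception in both being SLC47A2. With ABCG2 counted, 3 of 5 ABCG genes were tested and all 3 were called higher in CKI than in Baituling, beside 11.2% of all genes. ABCG2 was chosen on these contrasts, so nothing is read from this count. No difference between subfamilies was tested. ABCG1, a cholesterol exporter of macrophages, had 2.24 ± 0.127 CPM with CKI and 0.205 ± 0.144 with Baituling (SD, n = 3), which is a rise of 3.37 ± 0.34 on the log2 scale (adjusted p = 3e-08). With Kushen its level was 1.13 ± 0.0626 CPM (2.39 ± 0.39 against Baituling, adjusted p = 1.96e-05). The ABCG1 differences from Baituling replicate 1 alone were 2.68 ± 0.42 and 1.70 ± 0.47. ABCG1 had only 1 to 7 counts in a Baituling library. It passed the filter through CKI (54 to 60 counts) and Kushen (24 to 29 counts). ABCG4, its close relative, rose by 1.46 ± 0.17 in CKI against Baituling (adjusted p = 2.36e-07). Among the ABCC genes, 8 of 12 were tested. In CKI against Baituling 2 were called higher (ABCC2 and ABCC3, described above) and 1 lower, beside 11.2% and 7.91% of all genes. ABCC2 and ABCC3 were chosen on these contrasts, so nothing is read from this count. The gene called lower was ABCC6, a pump whose loss causes pseudoxanthoma elasticum. Its log2 fold change was -1.12 ± 0.19 (adjusted p = 2.61e-05).

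None of the 7 ABCB genes tested was called in any contrast by edgeR or by DESeq2, although 4 to 7 of them had an unadjusted p under 0.05. None of the 3 ABCD or 4 ABCE and ABCF genes was called by either tool, with 2 to 3 and 3 to 4 of them at an unadjusted p under 0.05. Of the 8 ABCA genes tested, 2 were called higher in CKI than in Kushen, beside 1.7% of all genes. They were ABCA13 (1.19 ± 0.23, adjusted p = 0.00051) and ABCA10 (1.14 ± 0.31, adjusted p = 0.00712). ABCA13 was called higher in CKI than in Baituling too (1.57 ± 0.26, adjusted p = 2.05e-05). ABCA10 was also higher in CKI than in Baituling (2.30 ± 0.40, adjusted p = 3.18e-05, and 3.12 ± 0.64 with Baituling replicate 1 alone). Its counts per library were 3 to 9 in Baituling, 9 to 18 in Kushen and 29 to 36 in CKI. ABCA10 passed the filter mainly through CKI, where it was highest, so its p-values are not read as tests. ABCA7, a lipid transporter, was higher in Kushen than in Baituling (1.36 ± 0.09, adjusted p = 1.41e-10), with 69.1 ± 10.4 CPM against 26.9 ± 2.03. It was called higher in CKI than in Baituling too (1.13 ± 0.10, adjusted p = 1.95e-09).

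Of the 11 SLCO genes, 6 were tested. Besides SLCO2B1 and SLCO4A1, the prostaglandin transporter SLCO2A1 was called lower than in Baituling in both CKI (-2.56 ± 0.41, adjusted p = 1.5e-05) and Kushen (-1.56 ± 0.36, adjusted p = 0.00075). Its level was low, 1.04 ± 0.238 CPM in Baituling. Its counts per library were 16 to 24 in Baituling, 6 to 12 in Kushen and 3 to 6 in CKI. SLCO2A1 passed the filter through Baituling, where it was highest, so these p-values are no test. SLCO4C1, known from the kidney, was higher in Kushen than in Baituling (1.23 ± 0.17, adjusted p = 2.51e-06). SLCO1B3 was tested and not called in any contrast. SLCO1B1, the liver carrier, did not pass the filter, with at most 4 counts in a library.

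Among the organic ion carriers, 9 of 25 were tested. SLC47A1 and SLC47A2 encode the MATE antiporters, which extrude organic cations. Counts of SLC47A1 per library were 6 to 7 in Baituling, 55 to 91 in CKI and 45 to 64 in Kushen. SLC47A1 had 0.336 ± 0.0457 CPM in Baituling, 2.97 ± 0.761 in CKI and 2.40 ± 0.350 in Kushen, with log2 fold changes of 3.13 ± 0.31 (adjusted p = 1.97e-08) and 2.83 ± 0.32 (adjusted p = 1.81e-07) against Baituling. SLC47A2 was called in both contrasts (3.21 ± 0.82 and 3.23 ± 0.83, adjusted p = 0.00164 and 0.00172) from 0 to 1 counts in a Baituling library and 4 to 13 in the others. Both SLC47 genes passed the filter only through CKI and Kushen, where they were higher, so their p-values are no test. SLC47A2 was not called with Baituling replicate 1 alone (2.78 ± 1.20, adjusted p = 0.0532, and 2.81 ± 1.20, adjusted p = 0.0546). SLC22A23 was higher than in Baituling in both CKI (1.93 ± 0.16, adjusted p = 1.32e-09) and Kushen (1.32 ± 0.17, adjusted p = 9.55e-07). SLC22A31 was lower in CKI than in Kushen (-1.15 ± 0.17, adjusted p = 3.63e-05) and higher in Kushen than in Baituling (1.48 ± 0.19, adjusted p = 9.58e-07).

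Of the 5 nucleoside carriers tested, SLC29A4, which encodes the plasma membrane monoamine transporter, was called. It had 18.7 ± 0.789 CPM with CKI, 19.4 ± 2.37 with Kushen and 5.58 ± 0.81 with Baituling, with 1.74 ± 0.11 (adjusted p = 3.18e-11) and 1.79 ± 0.11 (adjusted p = 3.01e-11) against Baituling. The peptide and histidine carrier SLC15A3 was lower than in Baituling (35.0 ± 0.272 CPM) in CKI (14.7 ± 1.78) and in Kushen (10.2 ± 1.26). Its log2 fold changes were -1.25 ± 0.09 (adjusted p = 7.29e-11) and -1.78 ± 0.09 (adjusted p = 1.2e-12).

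**Figure D4:**
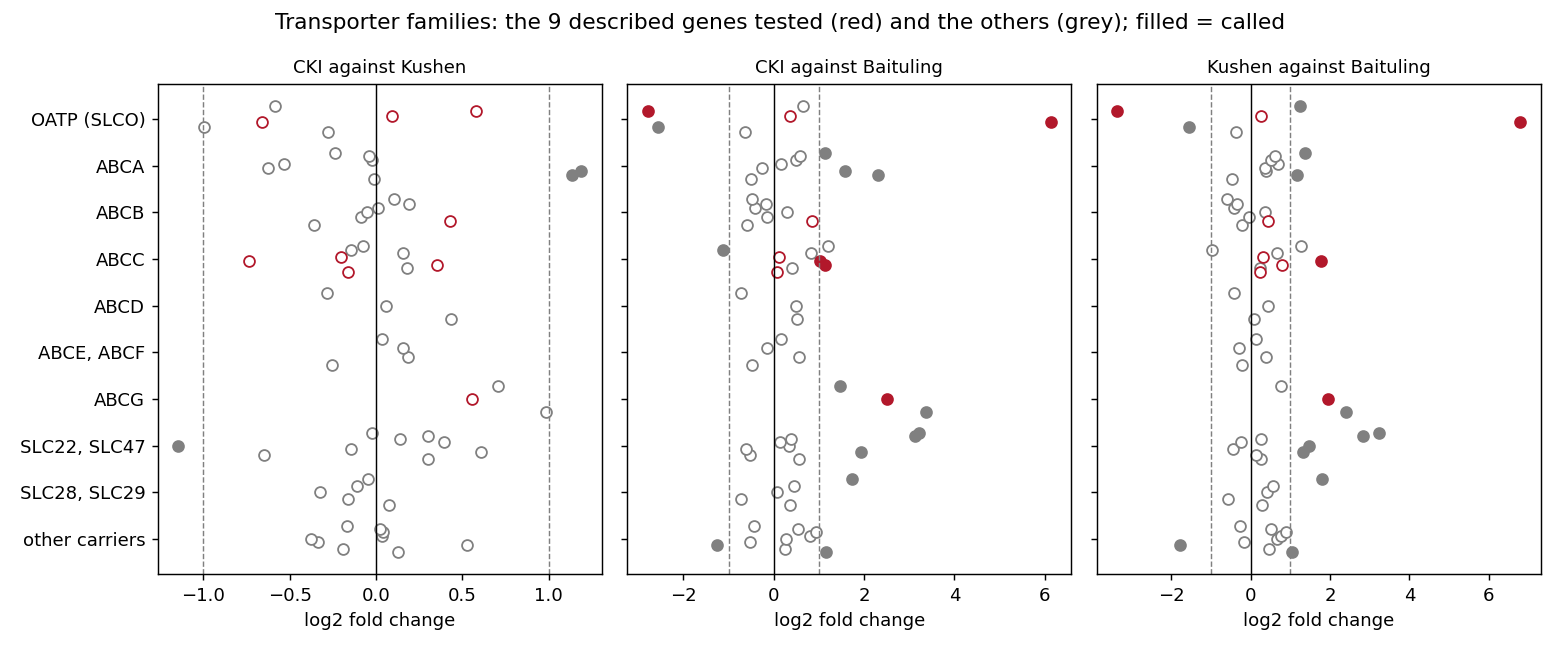
Log2 fold change (x axis, a separate scale per panel) of every gene tested in 10 transporter families (y axis) in the 3 contrasts, with the 9 described genes in red, the others in grey and called genes filled. Dashed lines mark 1 and -1. In CKI against Baituling all 3 ABCG genes (ABCG2 in red) are filled on the right, and SLCO2B1 and SLCO4A1 are the outermost points.

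Of 16 genes for transcription factors known to act on transporter genes and their partners, 13 were tested, and NR1I2 (the pregnane X receptor), NR1H4 and HNF4A did not pass the filter. In CKI against Kushen none was called by edgeR or DESeq2, although 10 had an unadjusted p under 0.05. In CKI against Baituling 2 were called higher and 1 lower (23.1% of the 13, beside 19.1% of all genes), and in Kushen against Baituling 2 higher and 0 lower (15.4% beside 15.2%). PPARA, the fatty acid receptor, had 65.5 ± 2.86 CPM with CKI, 72.6 ± 3.58 with Kushen and 18.2 ± 1.22 with Baituling (1.85 ± 0.06, adjusted p = 2.31e-15, and 2.00 ± 0.06, adjusted p = 1.25e-15, by edgeR against Baituling). NR1I3, the constitutive androstane receptor, was higher by 1.14 ± 0.23 in CKI (adjusted p = 0.000168) and by 1.0 ± 0.23 in Kushen (adjusted p = 0.000818). NR1I3 was not called in either contrast with Baituling replicate 1 alone (0.87 ± 0.32, adjusted p = 0.0256, and 0.74 ± 0.32, adjusted p = 0.0614), and the calls of PPARA and YBX1 held. YBX1, a nucleic acid binding protein, was called lower with CKI than with Baituling (-1.06 ± 0.05, adjusted p = 7.13e-14).

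The other 10 regulators (AHR, ARNT, NFE2L2, KEAP1, NR1H2, NR1H3, RXRA, PPARG, NR3C1 and HIF1A) were called in no contrast. AHR had log2 fold changes of -0.16 ± 0.04 for CKI against Kushen, -0.27 ± 0.04 for CKI against Baituling and -0.11 ± 0.04 for Kushen against Baituling. NFE2L2 had 0.25 ± 0.04, 0.30 ± 0.04 and 0.06 ± 0.04 in the same order. HIF1A had the largest difference of these 10 in CKI against Kushen, -0.71 ± 0.04. Whether any of these transcripts bears on the transporter levels was not tested.

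The genes with a pattern most like that of SLCO2B1 over the 9 libraries, by Pearson's r of log2 CPM among 11964 genes, were SLC33A1 (0.9959), CDS1 (0.9957), TMEM41B (0.9951), HSPA13 (0.9949) and ANXA10 (0.9945). Their mean level was lowest in Baituling too, but far from absent, as for CDS1 with 14.7 CPM with CKI, 16.5 with Kushen and 2.2 with Baituling. Most like ABCC3 were RGS7 (0.9892), ELP2 (0.9866), IFT57 (0.9832), GPR173 (0.9831) and ACADVL (0.9828). ACADVL, a mitochondrial enzyme of fatty acid oxidation, had 798 CPM with CKI, 962 with Kushen and 565 with Baituling. The 9 points fall into 3 groups and share the libraries, so these values rank genes and are not tests.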

How the data were processed

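RNA sequencing libraries of MDA-MB-231 cells (3 each for CKI, Kushen and Baituling at 48 h) were analysed, and groups were taken from the GEO labels. The authors trimmed the unstranded paired reads with Trim Galore 0.3.7 and aligned them with STAR 2.5.3a to hg19, according to the submitters' processing notes, and deposited a table of raw whole-number counts per gene. The counting program and the annotation it used are not given in the sources used here.

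The table held 24566 rows, of which 222 repeated an Ensembl gene with identical counts and were dropped. Symbols came from GENCODE v44lift37 for 24224 genes and from RefSeq for 99, and 21 stayed unnamed. filterByExpr of edgeR 4.0.16 (minimum count 10, minimum total 15; R 4.3.3) removed 10149 genes, so that 14195 were tested. TMM factors were 0.877 to 0.900 in Baituling, 1.02 to 1.05 in Kushen and 1.08 to 1.10 in CKI, so the scaling differed by group. The 3 contrasts came from 1 quasi-likelihood fit without covariates other than group, with two-sided p-values adjusted by Benjamini-Hochberg over all genes tested. Replicates of a group differed by more than sampling noise (chi-square per gene 1.70 to 6.85), with the least difference between Baituling replicates 2 and 3, and they were counted as 3 samples. An exact permutation test of 3 against 3 cannot go below p = 0.1, so single genes were not tested that way. Pooled-count ratios have 95% intervals for counting error only, and with over 20144628 counts per library this error is small except for genes of a few counts.

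The 10 transporters and all gene lists were chosen with earlier results of these data known. Named besides them were, per contrast, up to 6 called genes of the other transporters with the largest rise and up to 6 with the largest fall whose libraries did not overlap, every regulator of the list, and the 5 genes most like SLCO2B1 and ABCC3 whose mean log2 CPM was 1 or more (prior count 2). ABCG4, SLCO4C1, SLCO1B3 and SLCO1B1 were named after their values were seen. Alternatives were DESeq2 1.42.0, other scalings and filters, fits of the compared groups alone, a replicate block, each library left out, the rows as deposited and another gene length. A few regulators of the original list are not reported here.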

Additional observations from a re-analysis of the deposited data

How the results depend on the processing

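Over all alternatives, 477 recomputed log2 fold changes of the 9 transporters stayed on their side of the call, 2 passed it, 4 lost it and 0 changed direction. When libraries were scaled by their totals and not by TMM, the median of all genes moved from 0.03 to 0.32 in CKI against Baituling and from 0.02 to 0.23 in Kushen against Baituling, and ABCB6 (1.14 in the former) and ABCC2 (1.0 in the latter) passed the fold threshold. With every gene with a count kept, the count of transporters called in CKI against Kushen was 1, ABCB1, which enters only through its CKI counts, so that this count is no test. When each library had to hold 10 counts or more, fewer genes could be called: 102, 1808 and 1415 of all genes in CKI against Kushen, CKI against Baituling and Kushen against Baituling (270, 2715 and 2162 in the reported fit), and 8 and 7 of the other transporters in the contrasts with Baituling (13 and 12). SLCO2B1 was removed by that filter.

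Leaving out each library in turn, all genes called ranged from 265 to 300, from 2677 to 2845 and from 2100 to 2264, the described transporters from 0 to 0, from 3 to 5 and from 4 to 4, and the other transporters from 2 to 4, from 13 to 15 and from 11 to 13. The lowest value of 3 came without CKI replicate 1, where ABCC2 (0.88) and ABCC3 (0.96) lost their calls. ABCC3 also lost it without CKI replicate 2 (0.98) and without Baituling replicate 2 (0.97). Leaving out Baituling replicates 2 and 3 together, an alternative chosen after seeing the data, kept 0, 5 and 4 transporters called; the lone Baituling library is then assumed to vary like the other groups. The log2 fold change of SLCO2B1 was 5.6 to 7.71 in CKI against Baituling and 6.27 to 8.37 in Kushen against Baituling, highest without Baituling replicate 2, which holds 4 of the 5 counts.

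The replicate numbers did not pair the libraries: deviations of same-numbered libraries correlated at -0.28 to 0.25, with 1 of 9 pairs over 0.1, and 2 of 9 libraries correlated best with their own number. With a replicate block 269, 2713 and 2158 of all genes, 0, 5 and 4 of the described transporters and 3, 13 and 12 of the others were called. With the longest annotated transcript in place of all exons, 2 of 30 positions in the orders of level per kb changed, as SLCO3A1 and ABCG2 swapped places in CKI; every level per kb above 0 rose, since a single transcript is shorter than all exons. Depth limits ABCB1, ABCC2 and SLCO2B1 in Baituling, where few counts stand behind each value. The same holds for ABCG1, ABCA10, SLC47A1 and SLC47A2 in Baituling and for SLCO2A1 in CKI.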
